A study of Arabidopsis thaliana with 15 samples.

Results

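Secreted and surface proteins let the cells of a young epidermis signal to each other and remodel the wall between them. A set of 4 such genes of Arabidopsis thaliana, each with a pattern that follows the stages of stomatal development, is described here: ATLP-1 (AT1G18250), SBT1.3 (AT5G51750), AT5G23400 and CLE41 (AT3G24770). They are 4 of the 12668 genes that the probe annotation gives a probe set of their own. The genes were chosen by their expression levels across the stages on these same arrays, ATLP-1 as early, SBT1.3 and AT5G23400 as middle and CLE41 as mature, so the levels below describe that choice and carry no test.

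Expression was measured on 15 ATH1 arrays of fluorescence-sorted protoplasts, with 3 arrays for each of 5 populations. Early precursors, which take in meristemoid mother cells with young meristemoids, carried SPCHp::SPCH-YFP, middle precursors (late meristemoids and young guard mother cells) MUTEp::nucGFP, late precursors (mature guard mother cells together with young guard cells) FAMAp::GFP-FAMA, mature guard cells the enhancer trap E1728::GFP, and the whole epidermis ML1p::YFP-RCI2A. All lines were in the Col background, and all cells came from the aerial parts of seedlings aged 14 days, from 2000 to 20000 sorted cells per replicate. The plants grew at 25 °C on Murashige and Skoog medium at reduced strength with 1% sucrose, in 16 h of light and 8 h of dark, and protoplasting took 2 h. Because every population came from a different reporter line, effects of line and of stage cannot be told apart, and the epidermis sort can itself hold lineage cells. The SPCH-YFP and GFP-FAMA fusions can add to the SPCH and FAMA signals of their own sorts.

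ATLP-1 encodes a protein of the thaumatin-like family, whose members include the pathogenesis-related PR-5 proteins and are mostly secreted. SBT1.3 encodes a subtilase, a serine protease of the kind that plants export to the cell wall. In Arabidopsis the subtilase SDD1 limits the number of stomata, and the subtilase CRSP processes a peptide that holds back entry into the stomatal lineage. CLE41 encodes the precursor of TDIF, a small peptide known from the vascular tissue, where it is made in the phloem, is perceived by the receptor kinase PXY on procambial cells, and keeps those cells dividing and out of xylem fate. AT5G23400 is known here by its locus code only. It is grouped below with leucine-rich repeat proteins that lack a kinase domain, a class that includes several cell surface proteins, and the annotation used here names no product for it.

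Values are log2 expression from RMA, the standard summary of Affymetrix probe sets. The medians of the 15 arrays lay between 2.52 and 2.68, and a population mean at or below 2.68 is called near background, a bound set after the data were seen. A fold that rests on such a mean is computed against 2.68 and given as at least that value. A lower level in a sorted population can mean fewer cells that express the gene or less RNA in each cell, and these cannot be told apart.

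The early, middle and late precursor sorts were first checked against the genes behind their reporters. Mature guard cells and the epidermis had no such check, and none of the 6 epidermis markers listed was measured. SPCH, which starts the lineage, averaged 9.11 ± 0.10 in early precursors, 4.10 ± 0.63 in middle precursors and 2.27 ± 0.20 in the epidermis (SD, n = 3 each). FAMA (listed as FMA), which acts at the last division, averaged 10.11 ± 0.26 in late precursors. Mature guard cells had 7.23 ± 0.30 and the epidermis 3.19 ± 0.18. MUTE had means near background in all 5 populations, its own sort included, where it was highest at 2.37 ± 0.43. Early precursor arrays were the least alike, with Pearson's r across probe sets from 0.820 to 0.867 against at least 0.948 within every other population. Early precursor replicate 2 also stood apart in TRY, a regulator of trichome spacing, with 6.61 against 2.57 and 2.32 on the other early precursor arrays. Replicate 1 of early precursors stood apart in guard cell genes. It read 6.99 in AT1G22690 (GC1), against 2.73 and 2.28, and 6.46 in CHX20, against 4.88 and 4.79. The guard cell gene AT4G14480 (BLUS1) was near background in all 5 populations. Late precursor replicates 2 and 3 were the closest pair (r = 0.994). The labels do not say whether replicates came from separate cultures, so p-values measure the spread between these arrays.

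ATLP-1 was high in early precursors and low elsewhere. The 3 early precursor arrays read 7.58, 7.26 and 6.66, the middle precursor arrays 3.80, 2.77 and 3.06, and the late precursor arrays 2.49, 2.16 and 1.96. Mature guard cells read 2.35, 2.53 and 2.69, and the epidermis 2.24, 2.36 and 2.47. All 3 early precursor arrays lay above the 12 other arrays, with a gap of 2.86 to the highest middle precursor array. Of all probe sets, 3.73% had such a separation of early precursors, against 1.06% for middle precursors, 1.74% for late precursors, 0.534% for mature guard cells and 2.19% for the epidermis.

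In order of mean level ATLP-1 ran from 7.16 ± 0.47 in early precursors and 3.21 ± 0.53 in middle precursors to 2.52 ± 0.17 in mature guard cells, 2.36 ± 0.11 in the epidermis and 2.20 ± 0.27 in late precursors (SD, n = 3 each). Early precursors were at least 22.5-fold above the epidermis, and middle precursors were 15.5-fold below early precursors. The middle precursor arrays did not overlap with those of any other population, although the gap to mature guard cells was 0.08. Mature guard cells, late precursors and the epidermis overlapped with each other, all with means near background. A lead of early precursors over every other population at least as wide as that of ATLP-1 was held by 2 of 20956 probe sets, ATLP-1 included.

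The genes most like ATLP-1 over the 15 arrays, among 780 others whose population means spanned at least 2 log2 units, were SPCH (Pearson's r = 0.977), AT5G16250 (0.977), AT1G23790 (0.976), AT4G26660 (0.974) and AT1G63100 (0.969). These r values describe 5 clusters of 3 arrays that share a sort, so they mostly reflect differences between populations, and part of the SPCH signal in early precursors may come from the fusion. Within middle precursors the match was looser. Replicate 1 had the most ATLP-1 (3.80) and the least SPCH (3.52, against 4.0 and 4.77 on replicates 2 and 3). The plot of ATLP-1 against SPCH shows this spread between the middle precursor arrays.

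**Figure D1:**
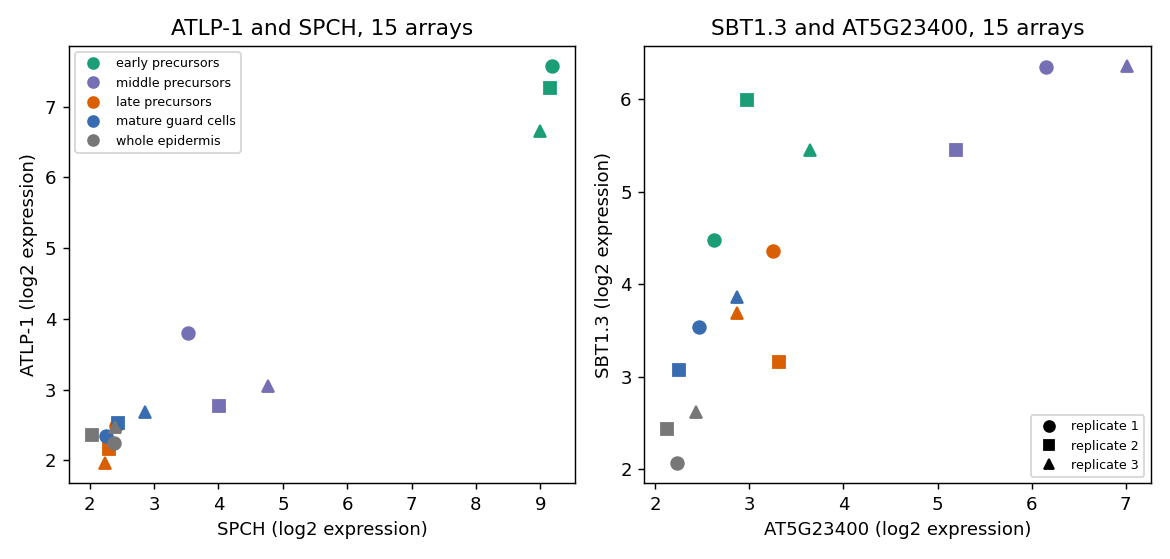
Log2 expression on each of the 15 arrays, ATLP-1 against SPCH on the left and SBT1.3 against AT5G23400 on the right, with colours for populations and symbols for replicates. The early precursor arrays stand alone at the top right of the left panel. In the right panel early precursor replicate 2 reaches 6.0 in SBT1.3 at only 2.98 in AT5G23400.

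Genes of cell division also had their highest means in early precursors, and their part in the ATLP-1 pattern was not tested. Of 10 mitosis genes listed, 3 were measured. All 3 were higher in early precursors than in the epidermis in limma's moderated test. That comparison called 8.91% of all probe sets in either direction and 3.4% of them as higher. The AUR1 and AUR2 calls were close to the threshold of 0.05 (limma adjusted p = 0.0359 and 0.0491). The chromosomal protein gene 3xHMG-box2 read 9.32, 9.28 and 9.37 in early precursors, against 5.74, 6.06 and 6.01 in the epidermis. The Aurora kinase gene AUR1, a spindle regulator, read 4.84, 2.55 and 4.96 in early precursors, against 2.1, 1.90 and 2.05 in the epidermis. AUR2, of the same kinase family, read 4.07, 6.29 and 4.89 in early precursors, against 3.10, 3.67 and 3.26 in the epidermis. On early precursor replicate 2 AUR1 was thus lowest and AUR2 highest, with ATLP-1 and 3xHMG-box2 within 1 log2 unit of the other early precursor arrays. Middle precursors read 4.48, 2.87 and 2.70 in AUR1 and 4.21, 4.56 and 5.14 in AUR2, and overlapped with early precursors in both. In 3xHMG-box2 they did not overlap.

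SBT1.3 was labelled a middle gene, but its early and middle precursor arrays overlapped. Early precursors read 4.48, 6.0 and 5.46, and middle precursors 6.35, 5.45 and 6.36. Late precursors read 4.36, 3.16 and 3.69, mature guard cells 3.54, 3.07 and 3.86, and the epidermis 2.06, 2.44 and 2.62. The data therefore place SBT1.3 in both precursor stages, with intermediate levels later in the lineage. The epidermis is its low point.

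Middle precursors averaged 6.06 ± 0.52 and early precursors 5.31 ± 0.77 in SBT1.3. Late precursors averaged 3.74 ± 0.60, mature guard cells 3.49 ± 0.40 and the epidermis 2.37 ± 0.28 (SD, n = 3 each). Middle precursors led early precursors by 0.75 on the log2 scale, a lead that was 0.43 after quantile normalization, 0.38 after cyclic loess and 0.33 without early precursor replicate 1. That array had the lowest SBT1.3 (4.48) and the highest CHX20 (6.46) of the early precursor arrays. The part of guard cell transcripts in its SBT1.3 level was not tested. A lead at least as wide in middle precursors was found for 172 of 20956 probe sets. Late precursors were 4.99-fold below middle precursors, with no overlap. Late precursors and mature guard cells overlapped with each other, yet both lay above the epidermis on every array, at least 2.09-fold and 1.76-fold by their means.

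The genes most like SBT1.3 were AT2G45590 (r = 0.960), AT5G08580 (0.929), AT4G17245 (0.920), the α-tubulin gene TUA6 (0.918) and AT4G25620 (0.915). By their means TUA6 and the other 4 were all higher in early and middle precursors than in late precursors, mature guard cells and the epidermis. TUA6 averaged 7.23 in early and 7.31 in middle precursors. Its means were 6.03 for late precursors, 6.21 for mature guard cells and 5.24 for the epidermis. These genes were picked for their likeness to SBT1.3 on the same arrays, so the shared step between middle and late precursors follows from that choice.

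AT5G23400 was high in middle precursors alone. The middle precursor arrays read 6.15, 5.2 and 7.02. Early precursors read 2.62, 2.98 and 3.64, late precursors 3.26, 3.31 and 2.87, mature guard cells 2.47, 2.25 and 2.87, and the epidermis 2.23, 2.13 and 2.43. All 3 middle precursor arrays lay above the 12 others, the lowest of them by 1.56 over the highest early precursor array. This separation of middle precursors was found for 1.06% of all probe sets.

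The mean of AT5G23400 in middle precursors was 6.12 ± 0.91 (SD, n = 3), the widest spread of the 4 genes in any population. It was 8.25-fold above early precursors (3.08 ± 0.52), and late precursors (3.15 ± 0.24) were 7.88-fold below middle precursors. Middle precursors were also at least 10.9-fold above the epidermis (2.26 ± 0.15). Early and late precursors overlapped, and mature guard cells (2.53 ± 0.32) overlapped with early precursors and the epidermis. Late precursor replicate 3 and mature guard cell replicate 3 had the same value. A lead as wide as that of AT5G23400 in middle precursors was held by 2 of 20956 probe sets, AT5G23400 included.

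Both genes labelled middle, SBT1.3 and AT5G23400, were lowest on replicate 2 of the 3 middle precursor arrays, as were ATLP-1 (2.77) and MUTE (1.92, against 2.41 and 2.78 on replicates 1 and 3). On the same array CHX20, a cation/proton exchanger gene of guard cells, was highest at 8.11, against 6.42 and 6.81 on the other middle precursor arrays. FAMA was 6.47 there, against 6.50 and 6.93. The part of this array in the spread of AT5G23400 was not tested, but without it the lead of AT5G23400 was 3.44 in place of 2.98, and without replicate 3 it was 2.53.

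SBT1.3 and AT5G23400 had r = 0.79 over the 15 arrays, the highest among the 6 pairs of the 4 genes. ATLP-1 had r = 0.535 with SBT1.3 and 0.04 with AT5G23400, and CLE41 had a negative r with each of the others, from -0.254 to -0.184. The 2 genes differed in early precursors, where SBT1.3 averaged 5.31 and overlapped with middle precursors while AT5G23400 averaged 3.08 and did not. In mature guard cells SBT1.3 lay above the epidermis on every array, and AT5G23400 was near background and overlapped with it. As with the other r values, populations of 3 arrays are what these points share.

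The genes most like AT5G23400 were AT4G13710 (r = 0.878), AT1G68470 (0.867), AT5G47330 (0.854), AT1G48100 (0.850) and AT3G05510 (0.848), all listed by locus code alone. All 5 had their highest mean in middle precursors, AT4G13710 at 5.07 and AT1G68470 at 4.6. Their r values are lower than those of the genes most like ATLP-1, and the plot of the most similar genes shows that none of them has as wide a peak.

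CLE41 was above background in mature guard cells alone. Mature guard cells read 3.89, 3.24 and 2.95. The 12 other arrays read between 1.79 and 2.17, which is below the median of every array. The early precursor arrays read 1.91, 1.93 and 2.02, the middle precursor arrays 2.04, 2.17 and 1.89, the late precursor arrays 1.97, 1.93 and 1.99, and the epidermis 1.79, 1.96 and 1.92. All 3 mature arrays lay above the rest, by 0.77 over middle precursor replicate 2, as for 0.534% of all probe sets.

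Mature guard cells averaged 3.36 ± 0.48 in CLE41, against 1.89 ± 0.09 for the epidermis (SD, n = 3 each). Mature guard cells were at least 1.61-fold above each other population, a bound set by the background rather than by the measured difference of 1.47 from the epidermis on the log2 scale. Middle precursors (2.04 ± 0.14), late precursors (1.97 ± 0.03), early precursors (1.95 ± 0.06) and the epidermis overlapped with each other, all near background, so no order is read among them. The level in mature guard cells is modest, and replicate 1 carries much of it. Without that array the lead over the next population was 1.06 in place of 1.32. A lead at least as wide in mature guard cells was found for 12 of 20956 probe sets.

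CLE41 is known from phloem, so phloem markers were read beside it. Of 10 phloem markers listed 1 was measured. SWEET11, a sucrose exporter gene of phloem parenchyma, was near background in all 5 populations, at 2.82, 2.18 and 2.60 in mature guard cells, against 2.65, 1.95 and 2.54 in the epidermis. None of the 8 procambium and xylem markers listed was measured, and PXY is not analysed here. CHX20 read 9.87, 10.12 and 10.10 in late precursors and 9.70, 9.39 and 9.90 in mature guard cells, against 6.41, 6.68 and 6.52 in the epidermis. The CHX20 arrays of mature guard cells and late precursors thus overlapped, while those of CLE41 did not. CLE41 was chosen for its high level in mature guard cells, so this contrast follows from that choice. GC1 overlapped as well, at 9.04, 9.24 and 8.16 for mature guard cells against 7.83, 9.64 and 9.75 for late precursors. BLUS1 was near background throughout and cannot be compared.

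The genes most like CLE41 were AT1G35200 (r = 0.966), AT1G78110 (0.927), AT3G11930 (0.772), AT3G16670 (0.726) and AT1G25230 (0.720). AT1G35200 averaged 4.57 in mature guard cells and lay between 2.02 and 2.49 elsewhere, and AT1G78110 averaged 4.70 and lay between 2.54 and 3.00 elsewhere. The other 3 were also highest in mature guard cells but less sharply. AT3G16670 averaged 7.41 in mature guard cells and already 5.59 in late precursors.

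**Figure D2:**
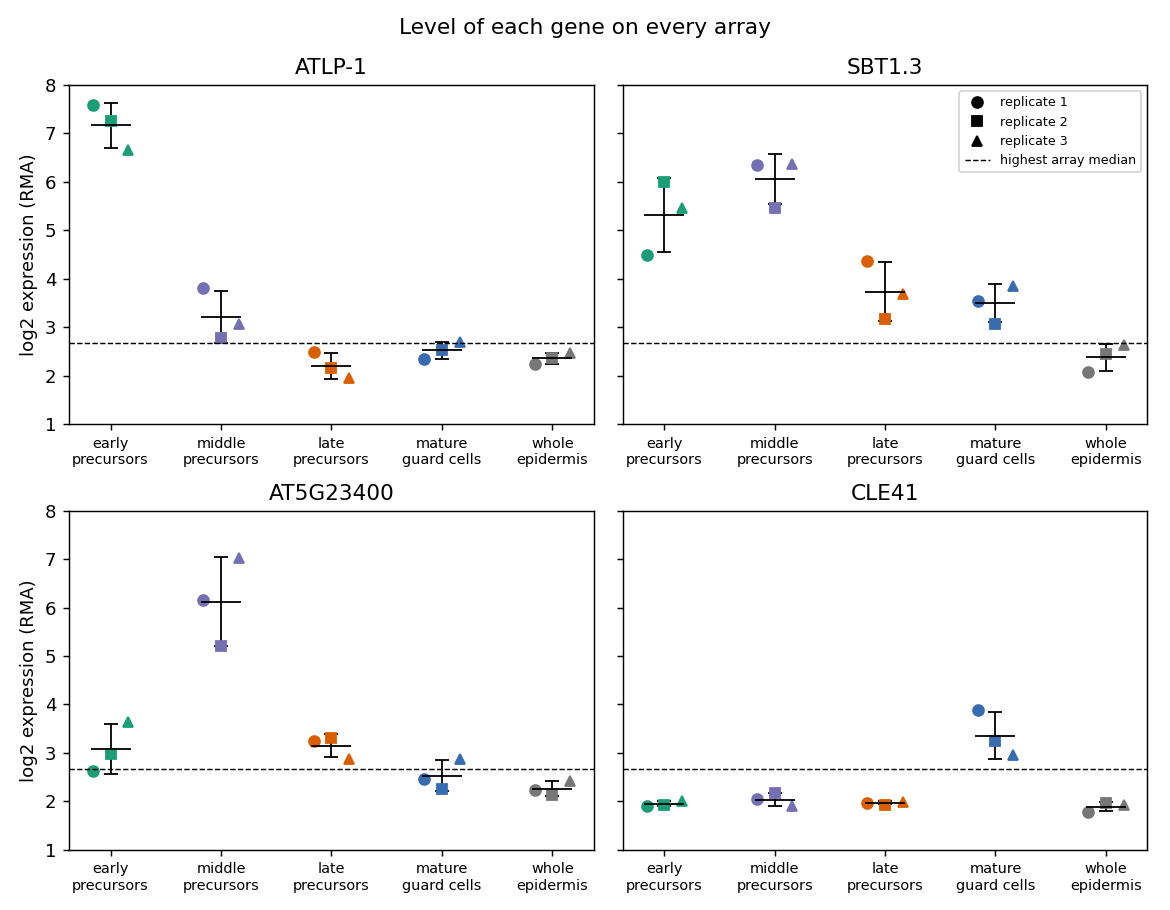
Log2 expression of ATLP-1, SBT1.3, AT5G23400 and CLE41 on every array, by population, with the mean and SD of 3 arrays as bars and the highest array median, 2.68, as a dashed line. ATLP-1 stands out in early precursors, SBT1.3 in early and middle precursors, AT5G23400 in middle precursors and CLE41, by a smaller step, in mature guard cells.

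**Figure D3:**
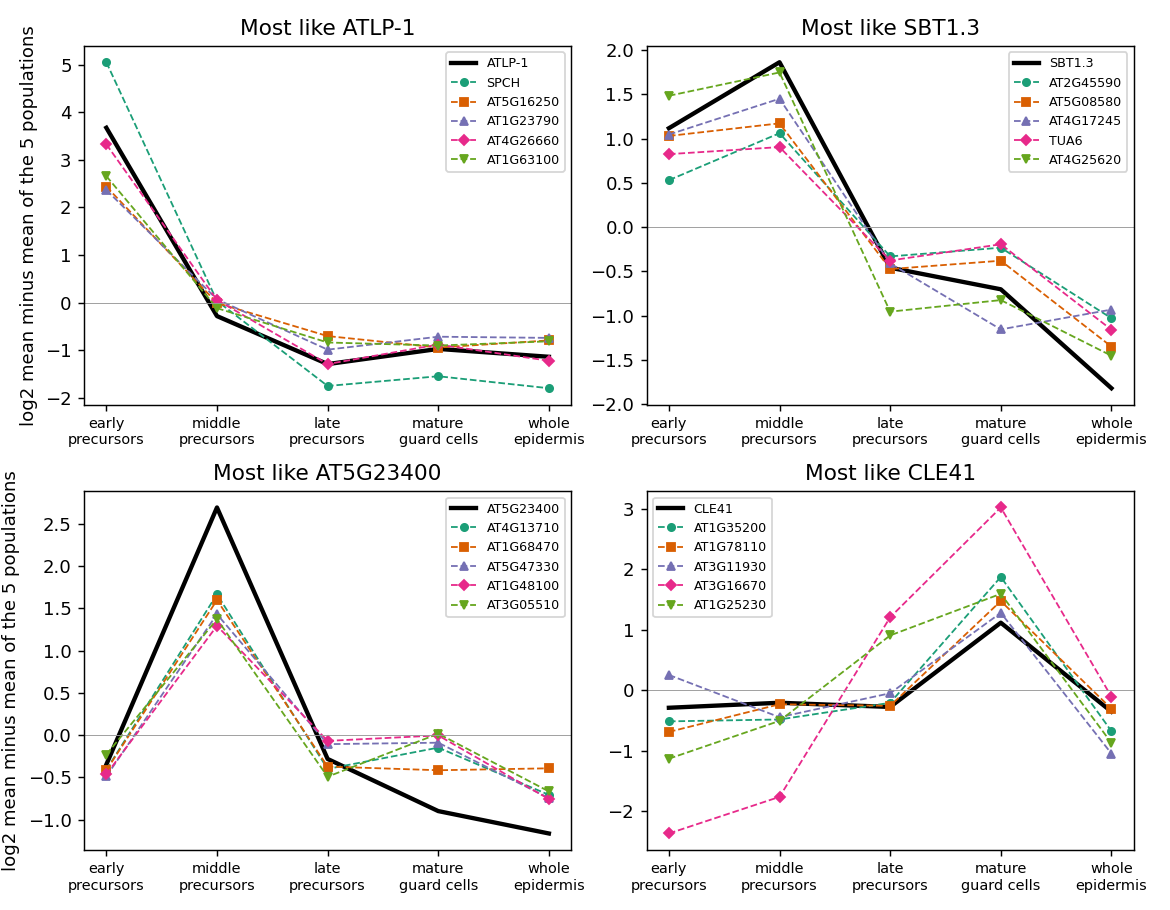
Population means of each gene (solid) and of the 5 genes most like it over 15 arrays (dashed), each line centred on its own mean over the 5 populations, in log2 units. The vertical scales differ between panels. SPCH exceeds ATLP-1 in its drop after early precursors, and AT3G16670 is already high in late precursors.

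Relatives of the 4 genes were then read to see whether their families share the stage patterns. The family lists and the CLE receptor and stomatal signal lists held 81 measured genes besides these 4, and 48 of the 81 were near background in all 5 populations. Differences were tested with limma over all 20956 probe sets, with Benjamini-Hochberg adjustment and a threshold of 0.05. Against the epidermis, 2 of the 81 were called in early precursors (2.47%, against 8.91% of all probe sets), 3 in middle precursors (3.7%, against 5.52%), 6 in late precursors (7.41%, against 8.01%) and 3 in mature guard cells (3.7%, against 3.91%). Between consecutive stages, 9 were called for middle over early precursors (11.1%, against 9.5%), 2 for late over middle precursors (2.47%, against 3.81%) and 0 for mature guard cells over late precursors (0.138% of all probe sets). In that last comparison 5 of the 81 had an unadjusted p under 0.05. These shares lie near or below those of all probe sets, except in the comparison of middle with early precursors, where the share was slightly higher.

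The split of these calls by direction depended on the scaling. Against the epidermis 0 of the 81 were higher and 2 lower in early precursors (all probe sets, 3.4% higher and 5.51% lower), and quantile normalization gave 1 higher and 4 lower. In middle precursors 2 were higher and 1 lower (3.24% and 2.29%), and cyclic loess left 0. In late precursors 4 were higher and 2 lower (4.75% and 3.26%), and cyclic loess gave 3 and 2. In mature guard cells 1 was higher and 2 lower (2.29% and 1.62%), and either scaling gave 1 of each. For middle over early precursors 5 were higher and 4 lower (5.47% and 4.03%), against 1 higher and 2 lower after cyclic loess. For late over middle precursors 2 were higher and 0 lower under all scalings (2.23% and 1.58%), and for mature guard cells over late precursors 0.0668% of all probe sets were higher and 0.0716% lower.

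Among thaumatin-like genes 19 besides ATLP-1 were measured, of 24 listed in all, and 11 of these were near background in every population. No other family member had a range of population means as wide as the 4.96 of ATLP-1, and the next was 2.4, in AT4G36010. The 4 genes were chosen for their stage patterns, so wider ranges than those of their relatives follow from that choice. AT4G36010 ran the opposite way. It read 5.62, 5.58 and 5.58 in middle precursors, against 3.36, 3.52 and 4.72 in early precursors, and the difference of 1.73 passed the test (SE 0.34, limma adjusted p = 0.00988; 0.0899 with only these groups in the fit). Against the epidermis AT4G36010 fell by 1.39 in early precursors (adjusted p = 0.0237). The call ended when epidermis replicate 1 (0.0624), epidermis replicate 2 (0.0989), early precursor replicate 1 (0.0683) or its replicate 2 (0.0672) was left out, with array weights (0.0735), and in the fit of those groups alone (0.21).

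Of the 8 other thaumatin-like genes above background, 7 had their highest mean in early precursors, the population with the greatest spread, and none of the 7 was called in early precursors against the epidermis. Of the 7, AT2G17860 and AT4G38670 passed the background bound in early precursors alone, so their early peak was fixed by that filter. The bound is itself the median of an early precursor array. Among all probe sets with a mean above the bound, 26.3% were highest in early precursors. For the 33 such relatives of all lists the share was 45.5%. AT1G03440, AT1G33670 and SBT3.12 of the other lists also passed the bound in early precursors alone. The share of the relatives is therefore partly set by the filter, and no early bias of these families is read from it. AT1G20030 shows the spread of the early precursor arrays, with 6.31, 2.96 and 5.17 there, against 3.34, 3.58 and 3.09 in the epidermis. OSM34, an osmotin gene, was near background in all populations. In the comparison of middle with early precursors AT2G17860 and AT4G38670 were lower by 0.67 and 1.03 (adjusted p = 0.0126 and 0.0394), with middle precursor means near background. The early precursor mean of AT2G17860 was only just above the background bound. The AT2G17860 call was lost with array weights (0.112) and with early and middle precursors fitted alone (0.0792). The AT4G38670 call was lost in 15 of 23 alternative fits, among them those without any one of the early precursor arrays 1 and 2 or the 3 middle precursor arrays. In middle precursors AT2G17860 was also lower than in the epidermis by 0.54 (adjusted p = 0.0398), a call lost in 15 of 24 alternative fits (adjusted p up to 0.129), and its middle precursor and epidermis means are both near background.

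Among subtilases 42 besides SBT1.3 were measured, of 55 listed in all, and 27 of them were near background throughout. The relative with the widest range was SBTI1.1, a subtilase of the same subfamily as SBT1.3, and it peaked at the other end of the lineage. Early precursors read 2.89, 2.97 and 2.22, middle precursors 3.20, 3.73 and 3.51, late precursors 3.7, 4.06 and 4.23, mature guard cells 4.66, 4.68 and 4.94, and the epidermis 2.54, 2.66 and 2.65. SBTI1.1 rose against the epidermis by 2.14 in mature guard cells (SE 0.21, limma adjusted p = 0.000307, and at most 0.00289 over 24 alternative fits) and by 1.38 in late precursors (SE 0.21, adjusted p = 0.00219, at most 0.013). Its epidermis mean of 2.62 is near background. In middle precursors it rose by 0.86 against the epidermis (adjusted p = 0.0338) and by 0.79 against early precursors (0.0371), calls lost in 8 of 24 and 10 of 23 alternative fits, with adjusted p up to 0.117 and 0.192.

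ARA12, a subtilase that modifies seed coat mucilage in Arabidopsis, was like SBT1.3 in having its highest mean in middle precursors, but unlike it was low in early precursors. Middle precursors read 5.80, 4.83 and 5.28, against 3.51, 3.72 and 3.81 in early precursors. The difference of 1.62 passed the test (SE 0.32, limma adjusted p = 0.00916), though not after cyclic loess (0.0527) or when the fit held early and middle precursors alone (0.0507). AT1G32950 was called in late over middle precursors, at 3.90, 3.98 and 3.41 in late precursors, against 2.60, 2.45 and 1.88 in middle precursors (1.45, SE 0.25, adjusted p = 0.00703, at most 0.0434 over 24 alternative fits). Its middle precursor mean is near background. AT2G05920 had no call. AT4G10550 was lower in middle than in early precursors (adjusted p = 0.0313) and near background in both. That call was lost in 9 of 23 alternative fits (adjusted p up to 0.182), among them those without early precursor replicate 2 or any one middle precursor array. AT5G59100 was lower in late precursors and mature guard cells than in the epidermis by 0.65 and 0.67 (adjusted p = 0.0163 and 0.0257), with a mean of 2.72 in the epidermis, just above the background bound. The late call was lost without epidermis replicate 3 (0.0658) or late precursor replicate 2 (0.077), and with late precursor arrays 2 and 3 averaged (0.0587). The mature call was lost without epidermis replicate 1 (0.0647) or 3 (0.093) or mature replicate 2 (0.0898) or 3 (0.0753). It was also lost with dim probe sets left out (0.0619) and with only these groups in the fit (0.077). AT4G21323 was higher in late precursors (adjusted p = 0.0494), a call lost in 15 of 24 alternative fits.

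Among leucine-rich repeat genes without a kinase domain 11 besides AT5G23400 were measured, of 17 listed in all, and 4 of them were near background throughout. AT5G12940 was the 1 other gene above background with its highest mean in middle precursors. It read 5.74, 5.17 and 5.25 there, against 4.62, 4.93 and 5.03 in the epidermis, spanned 1.18 over the 5 means where AT5G23400 spanned 3.86, and had no call. The pair AT1G33590 and AT1G33600, which have neighbouring locus codes, were both highest in late precursors, where all 3 arrays lay above the 12 others (1.74% of all probe sets). AT1G33590 read 8.95, 9.32 and 9.33 in late precursors, against 7.18, 7.55 and 7.40 in the epidermis (1.82, SE 0.21, limma adjusted p = 0.000371, at most 0.00321 over 24 alternative fits). AT1G33600 read 6.15, 6.28 and 6.69 in late precursors, against 4.39, 5.05 and 4.69 in the epidermis (1.66, SE 0.41, adjusted p = 0.0255). The AT1G33600 call was lost without epidermis replicate 1 (0.0814) or 3 (0.0804), without late precursor replicate 2 (0.0726) or 3 (0.103), and in both rescaled tables.

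In earlier steps the AT1G33590 differences were smaller. It was higher in middle precursors than in the epidermis (0.93, adjusted p = 0.0244) and in early precursors (0.98, 0.0151), and higher in late than in middle precursors (0.90, 0.034), calls lost in 7 of 24, 4 of 23 and 7 of 24 alternative fits. AT1G33600 was higher in middle than in early precursors by 1.63 (adjusted p = 0.0283), with early precursor arrays at 2.62, 4.66 and 4.27. That call was lost without middle precursor replicate 1 (0.0776), 2 (0.0731) or 3 (0.0884). It was also lost after quantile normalization (0.0977) or cyclic loess (0.113) and with only these groups in the fit (0.182). AT1G33670 was lower in middle than in early precursors (adjusted p = 0.00779; 0.102 when those groups were fitted alone). Its means were 2.1 in middle and 2.86 in early precursors, and the first of them is near background, so no size is given for the difference. DRT100, an Arabidopsis gene that restored DNA damage tolerance in bacteria, had no call and read 2.49, 4.99 and 3.7 in mature guard cells, against 3.22, 4.11 and 3.81 in the epidermis.

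CLE41 was the sole CLE gene of 7 measured, of 32 listed, with a mean above background in any population. The 6 others were CLE26, CLE27, CLE40, CLE44, CLV3 and AT5G59305, and limma called 0 of them in any of the 7 comparisons, with 0 to 2 of the 6 at an unadjusted p under 0.05. CLE44 encodes the same TDIF peptide as CLE41. Early precursors averaged 2.04 ± 0.33, middle precursors 1.52 ± 0.16, late precursors 1.61 ± 0.08, mature guard cells 1.71 ± 0.15 and the epidermis 1.65 ± 0.14 (SD, n = 3 each). With all 6 near background, these arrays do not show whether they differed.

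Signals and receptors of these pathways were covered thinly. In the CLE receptor list 2 of 14 genes were measured, AT1G08590 and AT4G28650, and limma called 0 of them in any comparison, with 0 or 1 of the 2 at an unadjusted p under 0.05. AT1G08590 averaged between 2.76 and 3.42, and AT4G28650 between 2.18 and 2.70. In the stomatal signal list 2 of 22 were measured. The CRSP gene, listed as ATSBT5.2, was near background in all populations. STOMAGEN, whose peptide promotes stomatal formation and is made in mesophyll, read 1.40, 1.61 and 1.64 in late precursors, against 2.34, 3.21 and 2.53 in the epidermis (-1.14, SE 0.19, adjusted p = 0.00362, at most 0.0317 over 24 alternative fits).

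STOMAGEN was also lower in early precursors (-0.92, adjusted p = 0.011, lost with array weights at 0.0624 and with only these groups in the fit at 0.192) and in mature guard cells (-0.76, adjusted p = 0.0486, lost in 16 of 24 alternative fits). Its epidermis mean of 2.69 is just above the background bound, so no fold is given. Mesophyll-rich transcripts were higher in the epidermis sort too. RCA, which encodes Rubisco activase, averaged 7.40 ± 0.56 in late precursors and 9.75 ± 0.61 in the epidermis, and PSAE-1, a photosystem I subunit gene, averaged 8.48 ± 0.09 in late precursors and 10.44 ± 0.40 in the epidermis (SD, n = 3 each). The part of these transcripts in the STOMAGEN difference was not tested.

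**Figure D4:**
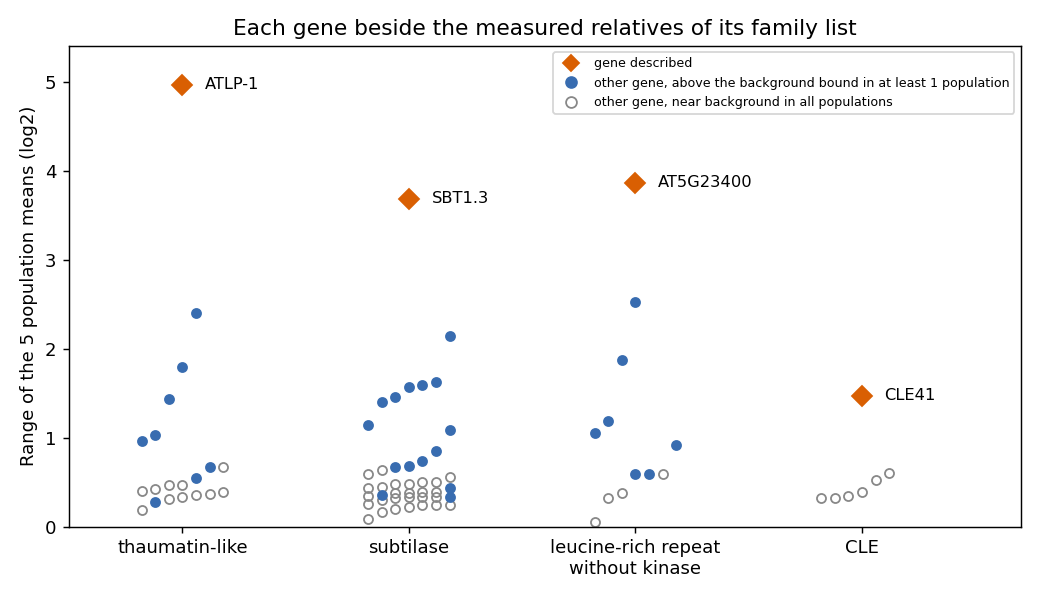
Range of the 5 population means, in log2 units, for each measured gene of 4 family lists, with the described gene of each family as a diamond. Other genes are filled where at least 1 population mean exceeds 2.68 and open where none does. ATLP-1 (4.96), SBT1.3 (3.68), AT5G23400 (3.86) and CLE41 (1.47) were chosen for their patterns, and their relatives reach 2.4, 2.14, 2.53 and 0.61.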

How the data were processed

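The authors deposited a table of log2 values for 20956 probe sets on each array. The submitters' processing notes name RMA and affy without a version. The log base is inferred from RMA and from the range of 1.11 to 13.4. The build is not given in the sources used here, so positions are left out. No sequence was at hand for the planned sequence features, which were not analysed here. Probe sets were named through the platform annotation and the reference gene list: 12783 to 1 gene, 37 to several, 8136 to none. The 4 genes, the lists and the tests were chosen with earlier results of these data known. List members were assigned to families from general knowledge of the loci, since the tables name few products.

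All 15 arrays entered 1 limma fit (version 3.58.1, R 4.3.3) with a mean per population, 10 residual degrees of freedom and 7 two-sided comparisons, adjusted by Benjamini-Hochberg over all probe sets at 0.05. The precision is limited by 3 arrays per population. Genes were named by a rule: the 4 genes, the 5 most alike to each by Pearson's r over 15 arrays, named relatives, up to 3 rises and 3 falls per list and comparison, and cell type markers beside the results they move with. AT1G20030 and AT5G12940 were named after their values were seen. Of the named relatives, AT1G75030, PR5, SDD1, AT4G34980, CLE42, PXY and FLOR1 are not analysed here. Same-numbered arrays of different populations shared little deviation by the median (correlation 0.00369 over 30 pairs, 3 of them over 0.1). For different numbers the median was -0.00313 over 60 pairs, 2 of them over 0.1. Numbers were therefore not taken as pairs, though these medians do not settle whether some arrays were handled together. No batch is given by the labels or the table. Alternatives were 2 normalizations, a filter on dim probe sets, a fit of only the groups compared, a replicate block, array weights, a trended and robust prior, the averaging of late arrays 2 and 3, and each array left out.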

Additional observations from a re-analysis of the deposited data

How the results depend on the processing

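The lead of each of the 4 genes over its next population kept its sign and moved by less than 1 SD in every alternative run. With each array left out in turn it ranged from 3.74 to 4.25 for ATLP-1, 0.33 to 1.09 for SBT1.3, 2.53 to 3.44 for AT5G23400 and 1.06 to 1.53 for CLE41. Of the 20 genes most like the 4, 10 were also chosen over the 5 population means. Of the 5 for each gene these were 1 for ATLP-1, 2 for SBT1.3, 4 for AT5G23400 and 3 for CLE41. SPCH ranked 6 for ATLP-1 by that measure. Signal near background limits what can be read for 48 of the 81 relatives, which lay there in every population. The causes of the changes in counts below were not tested.

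Among the 81 relatives, calls in early precursors against the epidermis numbered 2 and became 5 after quantile normalization and 0 with only the groups compared or with array weights. For middle precursors 3 became 0 after cyclic loess or with a trended and robust prior, and 5 without the early precursor arrays. For late precursors 6 became 13 with array weights and 3 with late arrays 2 and 3 averaged. For mature guard cells 3 became 1 without dim probe sets or with only the groups compared, and 5 without the early arrays. For middle over early precursors 9 became 5 after quantile normalization, 3 after cyclic loess, 0 with only the groups compared and 4 with array weights. For late over middle precursors 2 became 6 with only the groups compared, 15 with array weights, and 1 with a trended and robust prior or late arrays 2 and 3 averaged. For mature guard cells over late precursors 0 became 5 with array weights. Leaving out 1 array gave 1 to 9, 0 to 4, 3 to 8 and 1 to 4 calls against the epidermis in stage order, and 4 to 15, 0 to 1 and 1 to 3 for middle over early, mature over late and late over middle. The highest of these, 9 and 15, came without early precursor replicate 3.

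Over all probe sets, 1868 calls in early precursors against the epidermis became 273 with only the groups compared and 863 with array weights. For middle precursors 1157 became 2286 with array weights and 2496 without the early arrays. For late precursors 1679 became 4710 with array weights, 858 with late arrays 2 and 3 averaged and 2924 without the early arrays. For mature guard cells 820 became 533 with only the groups compared, 1468 with array weights and 1944 without the early arrays. For middle over early precursors 1991 became 1140 after cyclic loess, 362 with only the groups compared and 770 with array weights. For late over middle precursors 799 became 1793 with only the groups compared, 4256 with array weights, 327 with late arrays 2 and 3 averaged and 1412 without the early arrays. For mature guard cells over late precursors 29 became 13 after quantile normalization, 18 without dim probe sets, 0 with only the groups compared, 1008 with array weights and 3 with late arrays 2 and 3 averaged. Leaving out 1 array gave 1168 to 2752, 502 to 1692, 878 to 2175 and 309 to 1268 against the epidermis in stage order, 703 to 3765 for middle over early, 332 to 1016 for late over middle and 3 to 69 for mature over late.

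The replicate numbers were not taken as pairs. With the replicate number as a block, calls for mature guard cells over late precursors were 14 in place of 29, and every other count stayed within 1.5 times. The fits without the early arrays were added after the data were seen.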
